A study of Mus musculus with 4 samples.

Results

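The miR-143 and miR-145 cluster is a pair of microRNA (miRNA) hairpins on mouse chromosome 18, described here in NIH-3T3 cells with and without thapsigargin. Its members are the 4 arms named mmu-miR-143, mmu-miR-143*, mmu-miR-145 and mmu-miR-145* in the deposited read tables, out of 630 arms with reads. The star marks the arm that the annotation took as the less abundant product of a hairpin. Members were chosen by name, and reads matching more than 1 miRNA were left out. NIH-3T3 is an established mouse embryonic fibroblast line, grown here to confluency from equal cell numbers. One group of 2 libraries received 500 nM thapsigargin for 24 h, and the other group of 2 libraries was left untreated. Thapsigargin blocks the pump that loads calcium into the endoplasmic reticulum, and so causes stress in that organelle. The labels do not say whether replicates were separate cultures, so p-values measure only the spread between these libraries, which may be technical. The 4 members summed to 16.4% and 10.7% of arm reads with thapsigargin and 12.8% and 6.77% in controls.

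A miRNA hairpin is cut by Drosha and then by Dicer into a short duplex, and 1 strand is loaded into an Argonaute protein to repress target messenger RNAs while the other is usually degraded. miR-143 and miR-145 are transcribed together as 1 primary transcript, which lies in the long non-coding RNA gene Carmn (also called Mir143hg). In RefSeq (GRCm38.p6) both hairpin genes, Mir143 and Mir145a, lie inside the span of Carmn on chromosome 18. They are best known for high levels in smooth muscle and mesenchymal cells, where serum response factor and myocardin drive them and where both favour the contractile state. The processing of both hairpins by Drosha is also known to be raised by p53 in human cells.

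Arm reads per library were 5570971 and 2685965 with thapsigargin, against 3857002 and 3633414 in controls. The untested arms held 2744 reads in all. Control replicate 1 stood apart from the other 3 libraries in where its reads begin. Of 58 arms with at least 1000 reads in every library, the 45 whose full annotated arm is among the reads and whose following bases are known (from RefSeq hairpins, and for miR-143 from hairpin reads) were compared. A median of 0.0397% and 0.0438% of reads began at the annotated first base in thapsigargin replicates 1 and 2, and 98.9% and 0.0535% did so in control replicates 1 and 2. Results that this touches are therefore also given without that library, or with its reads shortened by their first base. miRNA markers of other cell types were at or near 0. The 7 muscle markers summed to 2 and 0 reads with thapsigargin and 2 and 0 reads in controls, with miR-1, miR-133b, miR-208a and miR-208b at 0 in all libraries. Epithelial markers (8 arms) summed to 19 and 6 reads with thapsigargin and 11 and 4 in controls, and blood cell markers (6 arms) to 11 and 2 with thapsigargin and 6 and 6 in controls. Endothelial markers (2 arms) summed to 17 and 5 reads with thapsigargin and 5 and 1 in controls, all from miR-126-5p, with miR-126-3p at 0. Embryonic stem cell markers (13 arms) summed to 4 and 2 reads with thapsigargin and 0 and 5 in controls.

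miR-143 dominated the reads of the cluster. It is a repressor of growth and cytoskeletal genes in smooth muscle cells, and it had 912234 and 287205 reads with thapsigargin, against 492853 and 244523 reads in controls. Its rank by reads among all arms was 2 in both thapsigargin libraries, and 2 and 3 in control replicates 1 and 2. After scaling by the trimmed mean of M values (TMM), which sets libraries to the level of most arms, miR-143 stood at 147309 and 150093 CPM (reads scaled to a common library size) with thapsigargin and 91066 and 74782 CPM in controls. Both thapsigargin libraries were higher than both controls, and the thapsigargin libraries differed less from each other than the controls did. The means were 148701 ± 1969 CPM with thapsigargin and 82924 ± 11514 CPM in controls (SD, n = 2 each). The log2 fold change, thapsigargin over control, was 0.84 (SE 0.48), with an adjusted p of 0.893 in the quasi-likelihood test of edgeR, Benjamini-Hochberg adjusted over 310 arms. No arm was called in that test (0%), and 12 arms (3.87%) had an unadjusted p under 0.05. DESeq2 and limma-voom also called no arm. In bulk RNA, more cells that carry a miRNA and more of it per cell cannot be told apart.

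As a plain share of arm reads, without scaling, miR-143 took 16.4% and 10.7% with thapsigargin and 12.8% and 6.73% in controls, so that the groups overlapped. miR-10b, the arm with the most reads, took 41.7% and 53.3% of arm reads with thapsigargin and 35.7% and 56.6% in controls. Of the reads that are not miR-10b, miR-143 took 28.1% and 22.9% with thapsigargin and 19.9% and 15.5% in controls. On that base the groups did not overlap, but how many other arms separate on it was not counted. With TMM scaling the groups did not overlap in 33.5% of all 310 tested arms. On the same base miR-145 took 0.0535% and 0.0431% with thapsigargin and 0.0537% and 0.0594% in controls, lower in both thapsigargin libraries, where thapsigargin replicate 1 and control replicate 1 were nearly equal.

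miR-145, which represses regulators of the synthetic smooth muscle state, had far fewer reads than its neighbour. Different arms are compared here by reads only, and how evenly the libraries capture them was not tested. It had 1737 and 540 reads with thapsigargin and 1333 and 936 reads in controls. Its level was 280 and 282 CPM with thapsigargin, against 246 and 286 CPM in controls. The values of the groups overlapped, and control replicate 2 was the highest. The log2 fold change was 0.08 (SE 0.48; edgeR adjusted p = 0.987), and it was below 0, at -0.23, when libraries were scaled by total arm reads alone. That scaling moved the median of all tested arms to -0.36, from -0.0072 with TMM. By reads miR-145 ranked 75th and 78th with thapsigargin and 81st and 73rd in controls.

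**Figure D1:**
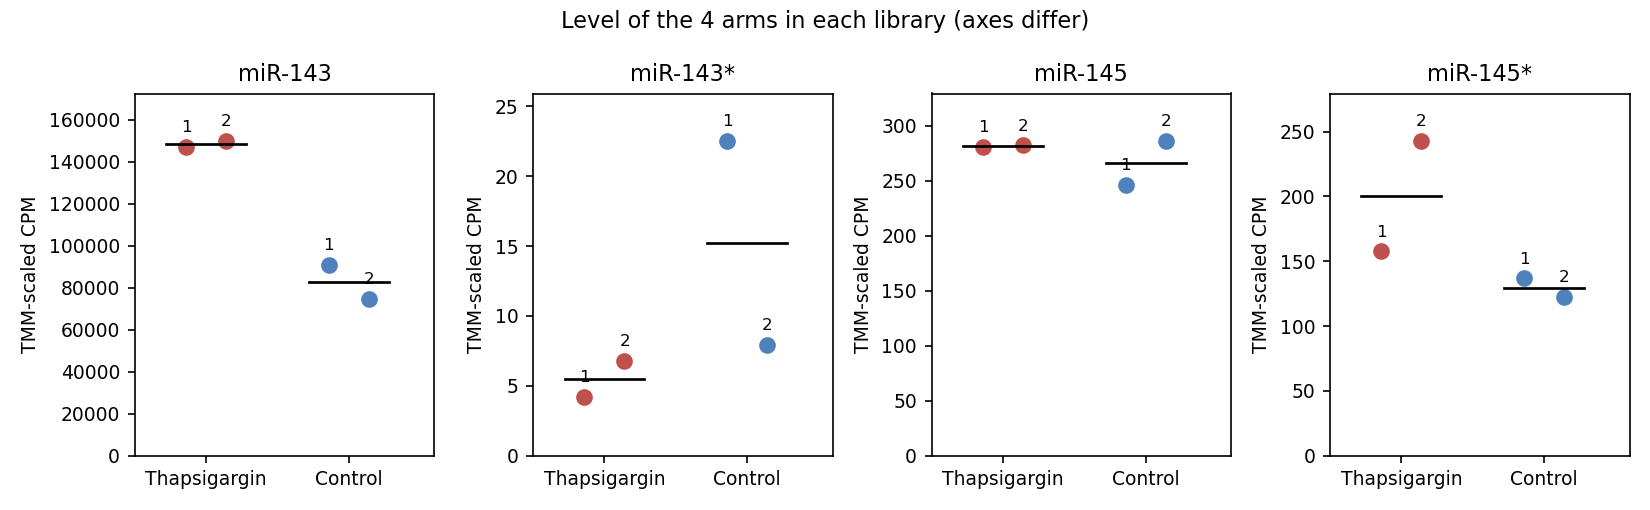
TMM-scaled CPM of the 4 arms by library, with thapsigargin (red) left of control (blue). Points are libraries numbered by replicate, black lines are group means, and each panel has its own linear axis from 0. miR-143 was at 147309 and 150093 CPM with thapsigargin, above both controls, and miR-145 overlapped between the groups.

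miR-145* is the opposite strand of the miR-145 duplex. It had 976 and 465 reads with thapsigargin and 740 and 401 reads in controls. Its level was 158 and 243 CPM with thapsigargin, against 137 and 123 CPM in controls. Both thapsigargin libraries lay above both controls, by less in replicate 1 than in replicate 2. The log2 fold change was 0.63 (SE 0.51; edgeR adjusted p = 0.987), and without thapsigargin replicate 2 it was 0.30.

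miR-143*, the opposite strand of the miR-143 duplex, had few reads. It had 26 and 13 reads with thapsigargin and 122 and 26 reads in controls. Its level was 4.20 and 6.79 CPM with thapsigargin, against 22.5 and 7.95 CPM in controls. Both thapsigargin libraries were lower, but thapsigargin replicate 2 lay close to control replicate 2, and control replicate 1 stood far above the other libraries. The log2 fold change was -1.52 (SE 0.70; edgeR adjusted p = 0.893), and it was -0.57 without control replicate 1.

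The groups thus did not overlap in 3 of the 4 arms, miR-143 and miR-145* higher and miR-143* lower, where 33.5% of all 310 tested arms did not overlap (17.4% higher and 16.1% lower with thapsigargin). In order of p, miR-143* was 18th, miR-143 38th, miR-145* 73rd and miR-145 256th of the tested arms. In the authors' deposited table of 324 miRNAs, miR-143 had a log2 fold change of 0.76 and a p of 0.256, and miR-145 had a log2 fold change of 0.011 and a p of 0.988. For each the authors' deposited table gives 1 as adjusted p.

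**Figure D2:**
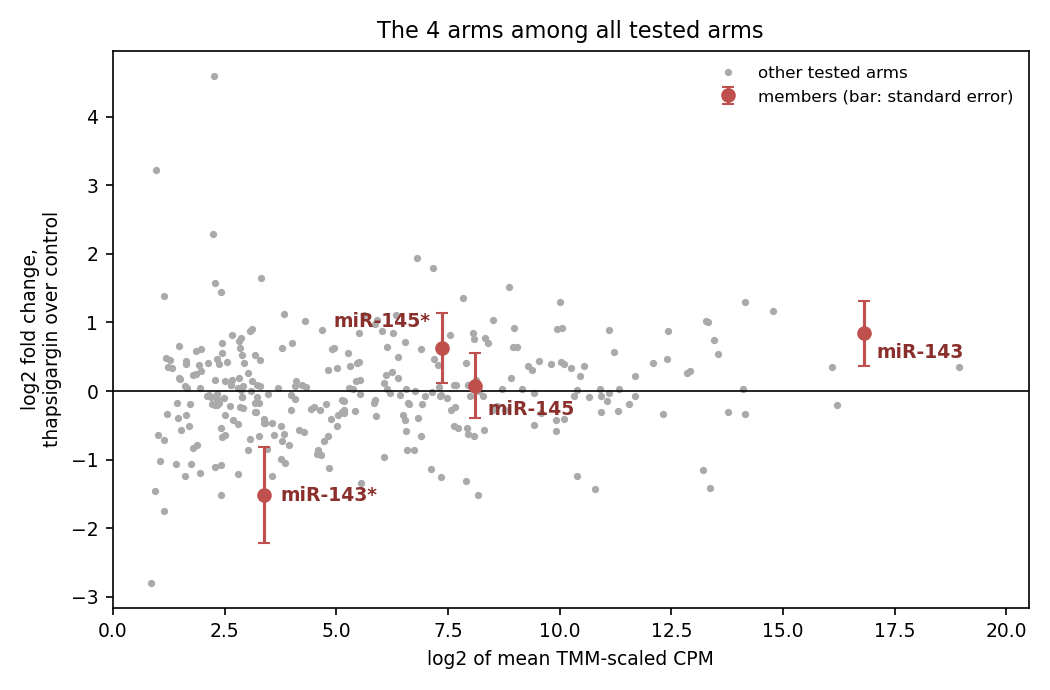
Each point is 1 of 310 tested arms, by the log2 of its mean TMM-scaled CPM over the groups and its log2 fold change, thapsigargin over control. The 4 members are red with their standard errors, and miR-143 at 0.84 and miR-143* at -1.52 lie on opposite sides of 0.

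Both hairpins come from 1 transcript. The read ratio of their mature arms is taken within each library and so, as for any pair of arms, needs no scaling. There were 525 and 532 miR-143 reads per miR-145 read with thapsigargin, against 370 and 261 in controls. On the log2 scale the ratio was 9.04 and 9.05 with thapsigargin and 8.53 and 8.03 in controls. Both thapsigargin libraries were higher and nearly equal, while the controls differed from each other. The means were 9.05 ± 0.013 with thapsigargin and 8.28 ± 0.35 in controls (SD, n = 2 each). The difference was 0.77, with an exact two-sided permutation p of 0.333, which is the smallest p that 2 libraries against 2 allow. With each library left out in turn, it ranged from 0.52 (without control replicate 2) to 1.02 (without control replicate 1). With both arms of each hairpin summed, the ratio was 336 and 286 with thapsigargin and 238 and 183 in controls, a log2 difference of 0.57. Fitted in edgeR as parts of 1 unit, miR-145 lay at -0.76 (SE 0.40) on the log2 scale relative to the pair, with an unadjusted p of 0.237 and an adjusted p of 1. That fit was chosen after the values were seen.

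Read ratios of other neighbouring hairpins differed by as much. In 20 pairs of hairpins within 10 kb on 1 strand, each with a mean of at least 100 reads in its more abundant arm, the absolute difference in log2 ratio had a median of 0.58 and ran from 0.023 to 1.74. The miR-143 and miR-145 pair was the eighth largest. The groups did not overlap in 8 of these pairs (40%), this one among them. A hairpin can stand in more than 1 pair, so pairs are not independent of each other. miR-182 and miR-96 differed by 1.20, and miR-99b and let-7e by -1.74, to name a pair from each side chosen after their values were seen.

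**Figure D3:**
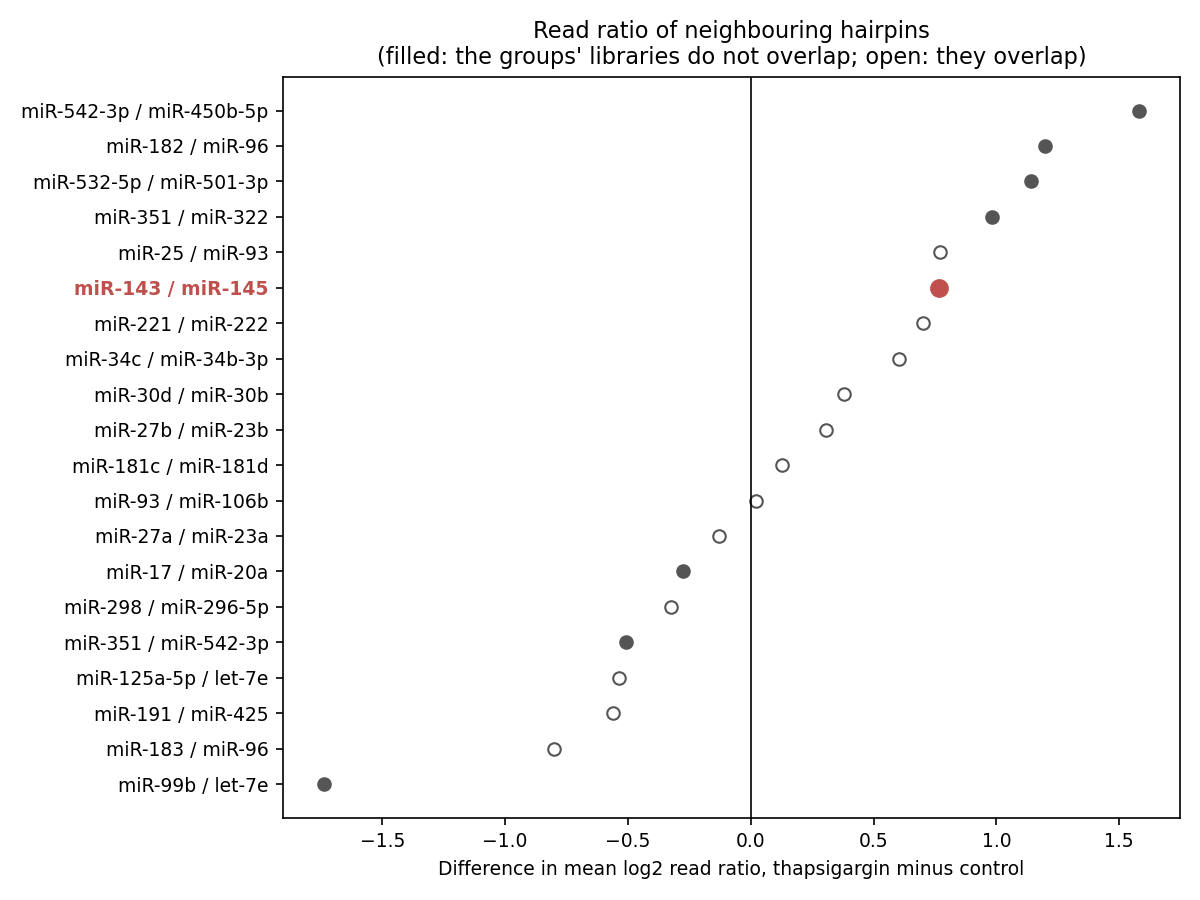
Difference in mean log2 read ratio, thapsigargin minus control, for 20 pairs of neighbouring hairpins, each as more abundant over less abundant arm. Filled points are pairs whose libraries do not overlap between groups and open points are pairs that do; the miR-143 and miR-145 pair, at 0.77, is red and filled.

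The star arms of the hairpins took very different shares. miR-145* made up 36.0% and 46.3% of mir-145 arm reads with thapsigargin, and 35.7% and 30.0% in controls. The 95% Wilson intervals, which cover counting error only, were 34.2% to 37.8% and 43.2% to 49.4% with thapsigargin, and 33.7% to 37.8% and 27.6% to 32.5% in controls. Thapsigargin replicate 1 and control replicate 1 thus lay within counting error of each other, and the other libraries lay above and below them. With the reads of control replicate 1 shortened by their first base, its share was 36.5% and the groups overlapped. Reads filed under a predicted star of mir-145, 30 and 2 with thapsigargin and 71 and 2 in controls, are not in these shares. In the edgeR test that follows they count as a further arm of the hairpin, so it does not compare the same shares. The arm-level test in edgeR gave miR-145* a log2 ratio of 0.36 (SE 0.80; adjusted p = 1).

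miR-143* made up 0.00285% and 0.00453% of mir-143 arm reads with thapsigargin, against 0.0247% and 0.0106% in controls. The Wilson intervals were 0.00195% to 0.00418% and 0.00265% to 0.00774% with thapsigargin, and 0.0207% to 0.0295% and 0.00726% to 0.0156% in controls. Both thapsigargin shares lay below both control shares, though the intervals of thapsigargin replicate 2 and control replicate 2 overlapped. The log2 ratio was -2.36 (SE 0.63), with an unadjusted p of 0.00368 and an adjusted p of 0.494 in edgeR's arm-level test over 165 arms. In that test 0 arms were called (0%), 5 arms (3.03%) had an unadjusted p under 0.05, and the groups did not overlap in 35.2%. The adjusted p ranged from 0.0548, without control replicate 2, to 1 over the alternatives.

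The miR-143* reads of control replicate 1 were unlike the others in length. Of its 122 reads 77 were 18 nt long, the shortest length in the tables, and 74 of these were exactly bases 1 to 18 of the annotated arm. The other 3 libraries had 0 reads of that length for this arm, with total counts of 26, 13 and 26. A read of the same end that begins 1 base later would be too short for the tables, and the reads of those libraries did begin 1 base later. Reads longer than 18 nt numbered 26 and 13 with thapsigargin and 45 and 26 in controls. With 18-nt reads left out of every library, the star share was 0.00289% and 0.00458% with thapsigargin and 0.00916% and 0.0109% in controls. The groups still did not overlap. The Wilson interval of thapsigargin replicate 2, 0.00268% to 0.00784%, overlapped those of both controls, 0.00684% to 0.0122% and 0.00741% to 0.0159%. The log2 ratio was -1.44, with an adjusted p of 0.9999 in edgeR's arm-level test. How many other hairpins separate with 18-nt reads left out was not counted.

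Among 67 hairpins with both arms tested, miR-143* had the second lowest mean star share. Only miR-10b* was lower, and miR-10a* and miR-191* came next. The median star share of these hairpins was 3.73%. miR-145* was 54th from the lowest, between miR-28* and miR-106b*. In 24 of the 67 hairpins (35.8%) the groups did not overlap.

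**Figure D4:**
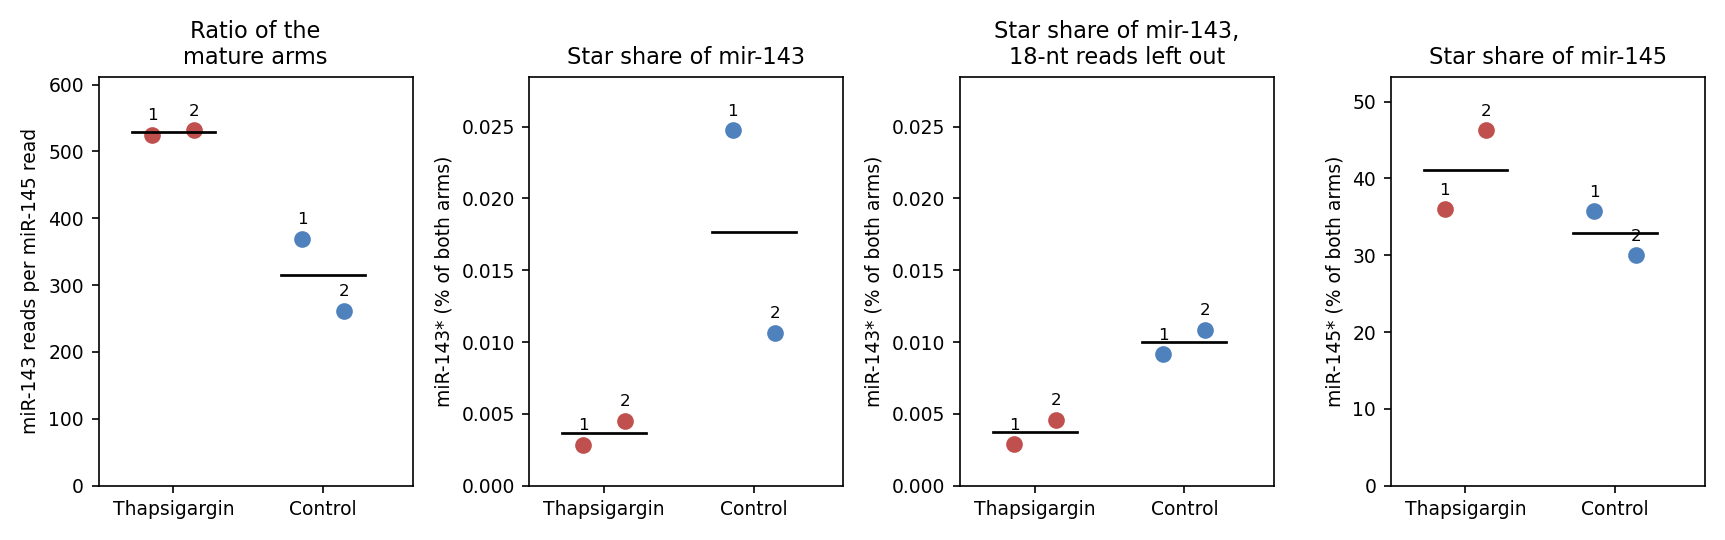
Read ratio of the mature arms and star shares by library, with thapsigargin (red) left of control (blue); points are libraries numbered by replicate, black lines are group means, and all axes are linear from 0. Leaving out 18-nt reads lowers the mir-143 star share of control replicate 1 to 0.00916%, still above the thapsigargin libraries.

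The ends of the reads were then compared. Ends are given as positions relative to the annotated first and last base of each arm. Of miR-143 reads, 0.734% and 0.727% began at the annotated first base in thapsigargin replicates 1 and 2, against 99.6% and 1.04% in control replicates 1 and 2. In the 3 libraries other than control replicate 1, 98.9% to 99.2% of miR-143 reads began 1 base later. miR-145 showed the same split, with 0 of 1737 and 0 of 540 reads at the annotated start with thapsigargin, and 98.5% and 0 of 936 reads in controls. A count of 0 allows a share of up to 0.173% and 0.556% with thapsigargin and 0.321% in control replicate 2. The seed, which is counted from the first base and guides target pairing, thus starts 1 base later in the deposited reads of 3 libraries. The difference divides the control group, as in the 45 arms above, and its cause was not tested.

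Counted from each library's own commonest start, the arms differed from each other. Reads filed by the authors under the hairpin or predicted star name were included here. Of miR-143 reads, 0.734% and 0.727% began 1 base before the commonest start with thapsigargin, and 0.801% and 1.04% did so in controls. miR-145 had 0 such reads in all 4 libraries. Of miR-145* reads, 6.86% and 5.35% began 1 base early with thapsigargin and 6.17% and 7.69% in controls. The early form was thus seen in every library for miR-143 and miR-145*, at a share about as large in control replicate 1 as elsewhere. For miR-143 both thapsigargin libraries lay below both controls (exact permutation p = 0.333), and for miR-145* the groups overlapped. How many other arms separate in this share was not counted, so the miR-143 separation has no background to be read against. miR-143* had 0 such reads of 26 and 13 with thapsigargin and of 122 and 26 in controls, too few to show a share as low as that of miR-143.

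Read lengths were compared in the same way, at each arm's commonest length over all libraries. For miR-143 that length was 20 nt, and it held 39.7% and 31.1% of reads with thapsigargin and 36.0% and 29.6% in controls, so that the groups overlapped and control replicate 1 lay among the other libraries. Mean lengths of miR-143 reads were 19.9 nt and 19.8 nt with thapsigargin and 20.9 nt and 19.7 nt in controls (exact permutation p = 0.667 for the share and 1 for the mean). For miR-145 the commonest length was 22 nt, which held 85.7% and 77.8% with thapsigargin and 9.75% and 86.0% in controls (exact permutation p = 1), with control replicate 1 apart from the rest. For miR-145* it was 20 nt, with 73.1% and 75.7% of reads with thapsigargin and 8.51% and 68.1% in controls (exact permutation p = 0.333). The groups did not overlap, but control replicate 1 again stood apart. With its reads shortened by their first base the difference fell from 36.1 to 4.01 percentage points. How many other arms separate in this share was not counted for lengths. For miR-143* the commonest form over all libraries, the annotated start at 18 nt, was set by control replicate 1 alone. Reads of 18 nt made up 0% and 0% of this arm with thapsigargin and 63.1% and 0% in controls.

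The last base of miR-143 varied more than its first. Reads ending 1 base short of the annotated end made up 32.6% and 42.9% with thapsigargin and 36.0% and 49.6% in controls. Reads ending at the annotated end made up 39.8% and 31.1% with thapsigargin and 37.8% and 29.4% in controls. Reads ending 1 base past it made up 23.7% and 22.4% with thapsigargin and 22.6% and 17.2% in controls. In all 3 forms the groups overlapped, and replicates 1 of both groups resembled each other more than either resembled its own replicate 2. miR-145 was more uniform, with 86.0% and 78.7% of reads at the annotated end with thapsigargin and 87.8% and 86.1% in controls. miR-145* ended mostly 1 base short of its annotated end, in 78.4% and 79.6% of reads with thapsigargin and 77.7% and 74.1% in controls. Both thapsigargin libraries lay below both controls for miR-145 and above them for miR-145* (exact permutation p = 0.333 each). For miR-145, thapsigargin replicate 1 and control replicate 2 were nearly equal. How many other arms separate in end position was not counted.

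Many of the longer miR-143 reads carried a T (a U in the RNA) that differs from the hairpin as read from the deposited tables. Terminal uridylyl transferases add such bases to miRNAs and their precursors. The deposited hairpin reads that extend past the annotated end, and that lie wholly within the hairpin by their alignment length, have an A as the next base (66 reads, all in control replicate 1). Of the other hairpin reads that run 1 base past the end, 914 had a T there, 896 of them in control replicate 1, 8 had a C and 1 had a G, and by their alignment length none of these lay wholly within the hairpin. Calling the T unencoded thus rests on that deposited field. A tail of T alone was present on 24.2% and 23.3% of miR-143 reads with thapsigargin and on 23.1% and 18.2% in controls. Wilson intervals were at most 0.31 percentage points wide. Both thapsigargin libraries lay above both controls, though thapsigargin replicate 2 and control replicate 1 differed little. The exact permutation p was 0.333, and the groups did not overlap in 15 of the 45 abundant arms with known following bases (33.3%). miR-143 ranked sixth to eighth of the 45 arms in this share in every library, where the medians ran from 1.50% to 2.11%. A base is counted as a tail only where it differs from the next base of the hairpin, so ranks depend partly on that base. miR-148b had the highest share, at 58.0% to 79.6%. Tails of A alone on miR-143 were at 0.157% and 0.0728% with thapsigargin and 0.127% and 0.0671% in controls. An added A that matches the next base of the hairpin is not counted there.

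Tails past the annotated end of miR-145 are not given, since the bases that follow there are not known from the files. No read filled the whole annotated arm of miR-145*. Its bases were therefore pieced together from its own reads that lie within the arm by their alignment length. The last base differed from these as an A in 12.9% and 6.02% of reads with thapsigargin and in 11.2% and 14.2% in controls. It differed as a C in 9.94% and 14.6% with thapsigargin and in 12.3% and 16.7% in controls. The groups overlapped in both shares. A changed last base read in sequencing and an added base cannot be told apart in these tables.

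**Figure D5:**
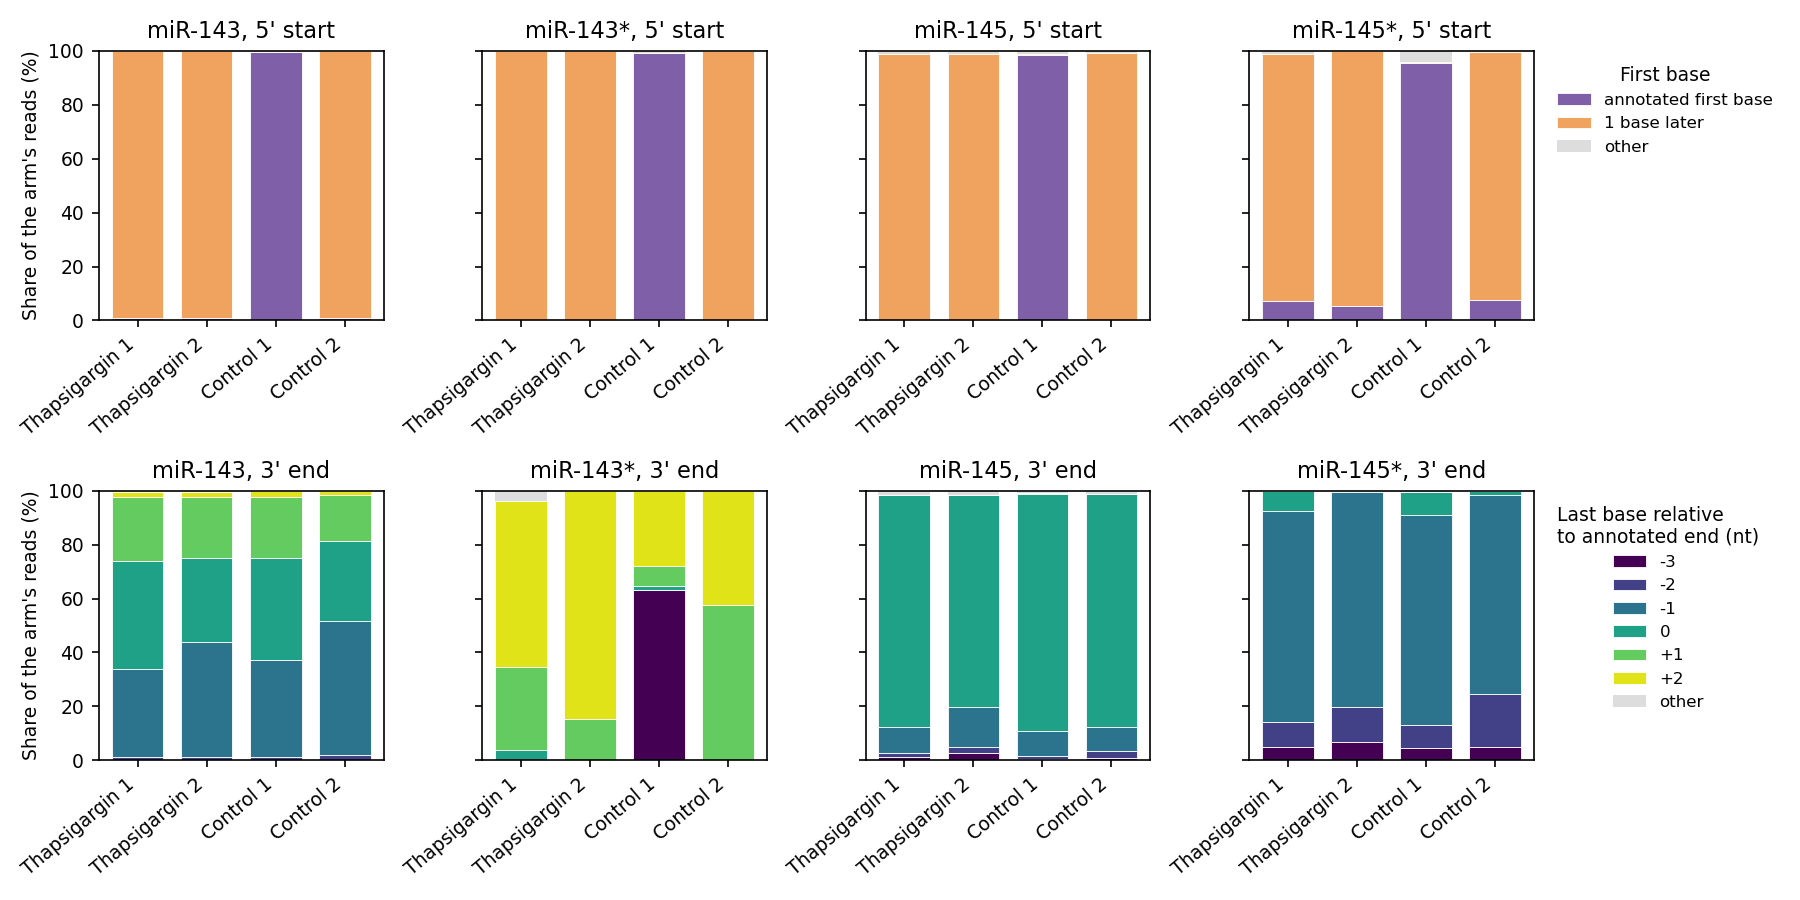
Share of each arm's reads by first base (top row) and by last base relative to the annotated end (bottom row), with thapsigargin libraries left of control libraries; grey is all other positions. Control replicate 1 begins at the annotated first base in all 4 arms while the other 3 libraries begin 1 base later, and 63.1% of its miR-143* reads end 3 bases short.

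Few reads came from the rest of the hairpins. Reads filed under the mir-143 hairpin numbered 126 and 25 with thapsigargin and 4034 and 38 in controls. Of these, 85 and 18 with thapsigargin and 3920 and 26 in controls were the mature arm with 1 extra base before it. Reads filed under the mir-145 hairpin numbered 10 and 1 with thapsigargin and 13 and 3 in controls, and they shared 12 bases with neither arm.

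Likeness to other arms was measured as the distance between their 4 log2 CPM values, each centred on its mean, over 168 arms with at least 100 reads on average. It covers 4 libraries only and is a description. The arms most like miR-143 were miR-98 (distance 0.17), miR-182 (0.18) and miR-30c-2* (0.20). miR-145* was 15th in likeness to miR-143, and miR-145 was 50th. The arms most like miR-145 were miR-193 (0.058), miR-29b (0.12) and miR-149 (0.13), and miR-143 was 88th. miR-98, a let-7 family member, stood at 1176 and 1384 CPM with thapsigargin and 766 and 597 CPM in controls.

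The lists to which the cluster belongs showed no called arm. Of 16 arms linked to smooth muscle phenotype, 12 were tested and 9 had log2 fold changes above 0, with a median of 0.30. Without the members these were 6 of 8, with the same median to 2 decimals. miR-221, which favours growth of smooth muscle cells, was at 694 and 516 CPM with thapsigargin and 500 and 277 CPM in controls (log2 fold change 0.64, SE 0.50, edgeR adjusted p = 0.987). Of 20 fibroblast and mesenchymal arms, 17 were tested and 9 lay above 0, with a median of 0.02. Without the members these were 7 of 15, with a median of -0.10. In that list the log2 fold change was -1.32 for miR-99a (SE 0.52), -1.24 for miR-100 (SE 0.52) and -1.52 for miR-322 (SE 0.67), each with an edgeR adjusted p of 0.893. Of 16 p53-linked arms, 14 were tested and 8 lay above 0, with a median of 0.05. Without the members these were 5 of 10, with a median of 0.0023. Among them miR-194 had a log2 fold change of -0.70 (SE 0.62, edgeR adjusted p = 0.987). Over all 310 tested arms, 155 lay above 0 and 155 below, with a median of -0.0072.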

How the data were processed

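Per the file headers, the authors deposited for every library the count of each distinct read and the count of each miRNA, beside a percent of the library's counted reads. Log2 values and p-values of the comparison were deposited in 1 further table by the authors. CASAVA 1.8.1, cutadapt, Bowtie, DESeq 1.4.1 and build mm9 are named in the submitters' processing notes, and libraries were made with an adapter-ligation small RNA kit, per the labels' protocols. That build differs from the GRCm38 annotation used here for neighbouring genes, so no coordinates are given. Read counts were summed by arm and library. The mature summary of thapsigargin replicate 2 matched its read table in 15 of 395 names, against 369 of 369, 363 of 364 and 348 of 348 in the other libraries, and was not used. Deposited reads were 18 to 25 nt long.

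Arm counts were fitted in R 4.3.3 with edgeR 4.0.16 (quasi-likelihood, robust, TMM, filterByExpr with a minimum count of 10, adjusted p threshold 0.05), and arm ratios with its diffSpliceDGE. The filter kept 310 of 630 arms, and the biological coefficient of variation was 0.447. DESeq2 1.42.0 and limma 3.58.1 were alternatives. Shares and ratios were compared by exact permutation with scipy 1.17.1. Scripts were tested on simulated data. The longest tail allowed was 3 nt, with at least 14 aligned bases. The text names all 4 members, at most 4 arms per list by smallest p, the 3 nearest arms by likeness, miR-10b, and hairpins nearest in star share. Members and lists were chosen with earlier results of these data known.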

Additional observations from a re-analysis of the deposited data

How the results depend on the processing

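The log2 ratio of miR-143 to miR-145 kept its direction in every alternative run. Its exact p could not fall below 0.333, and none was computed with a library left out. The log2 fold changes of miR-143, miR-143* and miR-145* also kept their direction. These arms were not called in any run with all 4 libraries. Their fold changes lay between 0.47 and 0.996 (miR-143), between -2.10 and -0.57 (miR-143*) and between 0.20 and 0.86 (miR-145*). That of miR-145 was -0.23 with total arm reads only and ran from -0.021 to 0.16 with each library left out. Arms called for abundance numbered 3 of 630 without a filter, and 0 to 3 with each library left out (1 without control replicate 1 and 3 without control replicate 2). Arms called for the arm ratio numbered 0 to 4 with each library left out (1 without control replicate 1 and 4 without control replicate 2). With the replicate number as a block 0 arms were called in either test, 30 had an unadjusted p under 0.05 for abundance (12 without it) and 16 for the arm ratio (5 without it). For the ratio of miR-143 to miR-145 the paired difference stayed 0.77 (exact p = 0.5, the smallest that 2 pairs allow). The deviations of same-numbered libraries correlated at 0.567 over 310 arms. The labels give these libraries only a shared number, so what else they share is not known, and there are only 2 pairs. With the block the edgeR adjusted p was 0.503 for miR-143, 0.528 for miR-143*, 0.605 for miR-145* and 0.967 for miR-145. Without it these were 0.893, 0.893, 0.987 and 0.987. Without the filter, 34 arms had an unadjusted p under 0.05, and without thapsigargin replicate 1 there were 26. In the arm ratio test there were 13 without the filter, 3 with 18-nt reads left out, and 4 to 10 with each library left out. Values of read forms, all thapsigargin minus control and in percentage points or nt, depend on control replicate 1. Taking the commonest form in each library turned the commonest start from 49.6 to -0.11 for miR-143, from -49.6 to 0.41 for miR-143* and from 47.1 to -0.43 for miR-145*. It turned the commonest length from 2.62 to -2.17 for miR-143, from -31.6 to 12.7 for miR-143* and from 33.8 to -4.79 for miR-145. Taking the first base off the reads of control replicate 1 gave commonest starts of 1.11 for miR-143* and -0.024 for miR-145, against 49.1 for miR-145 as deposited. It gave commonest lengths of -4.95 for miR-143, 15.3 for miR-143* and -4.86 for miR-145, and mean lengths of 0.0998 nt for miR-143 and 0.0069 nt for miR-145*, against -0.39 nt and -0.42 nt as deposited. With each library left out, the commonest length lay between -11.6 and 6.93 (miR-143), between -63.1 and 30.8 (miR-143*) and between -4.28 and 72.0 (miR-145), and the commonest start of miR-145 from -0.33 to 98.5. Mean length then lay between -0.99 and 0.21 nt (miR-143) and between -0.92 and 0.080 nt (miR-145*). With only reads seen at least 10 times, miR-143* had no reads left in thapsigargin replicate 2, so its read forms could not be given. The count of miR-143* was 13 to 122 reads per library, which limits the precision of its shares.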
